A study of Mus musculus with 8 samples.

Results

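Of the 24421 genes in the count tables, 32 genes of cholesterol and fatty acid synthesis are described, 22 sterol genes and 10 fatty acid genes. They were chosen by name as enzymes, regulators and a carrier of these pathways, by a rule that uses no measured value, though with earlier results of these data known, and all 32 symbols were found. R1 mouse embryonic stem cells (ESCs), an unmodified pluripotent line, were compared in an undifferentiated state (Undiff) and after differentiation (Day4). Undiff cells were kept in ESC medium with leukaemia inhibitory factor (LIF) and without retinoic acid (RA). The sources differ on whether Undiff cells are ESCs or embryoid bodies, which are floating aggregates of ESCs. Day4 cells were embryoid bodies that grew for 4 days in ESC medium without LIF. They were then given RA, an inducer of differentiation, for 4 days at 2 µM by the study's methods, while one label field has the unit mM. The parts of LIF and of RA in the differences between states were not tested. Polyadenylated RNA of each state was sequenced with the Oxford Nanopore (ONT) Direct RNA kit, which reads the native RNA, and with the ONT cDNA kit, which reads PCR-amplified copies, with 2 replicates per state and kit. The replicates were cultures grown and treated separately, and both kits used RNA of these cultures, so the kits do not add biological replicates.

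Cells build cholesterol from acetyl-CoA through mevalonate, farnesyl diphosphate, squalene and lanosterol. Fatty acids start from the same acetyl-CoA, which is made in the cytosol by ATP citrate lyase, carboxylated to malonyl-CoA and built into palmitate by fatty acid synthase, after which elongases lengthen the chain and desaturases insert double bonds. Transcription factors of the SREBP family turn on both sets of genes, and the Insig proteins hold SREBP in the endoplasmic reticulum when sterols are plentiful. SREBP is known to bind sterol regulatory elements in promoters, often beside a CCAAT box bound by NF-Y.

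The RefSeq promoter table for GRCm38.p6, with 250 bases before and 50 after each start, held promoters of 25 of the 32 genes. It had no entry for Fdps, Fdft1, Sqle, Stard4, Scd1, Scd2 and Fads1. The promoters of Hmgcs1 at chr13:119690101-119690400 (plus strand), Elovl5 at chr9:77917115-77917414 (plus strand), Fads2 at chr19:10101454-10101753 (minus strand) and Fasn at chr11:120824498-120824797 (minus strand) are shown 5′ to 3′. Hmgcs1 is shown as the gene of the sterol branch with both motifs, Fads2 as a fatty acid gene called higher in Day4 in both kits, Elovl5 as one called higher in cDNA, and Fasn as one called lower in Direct RNA. Capitals mark matches on either strand to TCACNCCAC, a sterol regulatory element, or to CCAAT, and adjoining matches of CCAAT can share bases.
Hmgcs1: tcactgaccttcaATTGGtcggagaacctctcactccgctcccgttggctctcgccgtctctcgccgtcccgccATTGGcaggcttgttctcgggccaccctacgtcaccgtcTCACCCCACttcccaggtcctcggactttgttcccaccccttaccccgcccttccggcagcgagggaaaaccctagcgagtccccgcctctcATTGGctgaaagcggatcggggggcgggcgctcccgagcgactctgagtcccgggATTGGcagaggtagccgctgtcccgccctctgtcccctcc
Elovl5: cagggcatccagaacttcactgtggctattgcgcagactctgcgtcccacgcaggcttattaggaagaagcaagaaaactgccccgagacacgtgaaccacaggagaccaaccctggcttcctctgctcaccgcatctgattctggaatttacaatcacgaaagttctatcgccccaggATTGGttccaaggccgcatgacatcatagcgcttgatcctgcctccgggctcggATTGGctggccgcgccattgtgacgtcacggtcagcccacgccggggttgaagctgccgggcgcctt
Fads2: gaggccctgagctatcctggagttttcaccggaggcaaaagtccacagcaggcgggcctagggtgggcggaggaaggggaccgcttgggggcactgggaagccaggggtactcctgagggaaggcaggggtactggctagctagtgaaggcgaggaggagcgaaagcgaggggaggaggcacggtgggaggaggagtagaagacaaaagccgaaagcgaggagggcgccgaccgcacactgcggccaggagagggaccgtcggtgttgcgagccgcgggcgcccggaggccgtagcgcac
Fasn: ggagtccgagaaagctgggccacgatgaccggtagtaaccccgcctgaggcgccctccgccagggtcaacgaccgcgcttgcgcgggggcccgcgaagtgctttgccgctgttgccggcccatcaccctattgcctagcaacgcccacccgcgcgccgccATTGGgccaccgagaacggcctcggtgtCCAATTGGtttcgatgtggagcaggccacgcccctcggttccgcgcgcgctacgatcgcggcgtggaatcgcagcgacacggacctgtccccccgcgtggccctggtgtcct

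Among these 25 genes only Hmgcs1 held TCACNCCAC in the window, with its first base at -137 from the start, whereas 1.44% of all 27025 genes in the table held it. CCAAT was found on either strand for 17 of the 18 sterol genes with a promoter and for 4 of the 7 fatty acid genes, against 41.1% of all genes in the table. Hmgcs1 had 4 matches to CCAAT, Fasn 3, Elovl5 2 and Fads2 0. The matches are a description of letters in a window and were not tested for binding.

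Reads on genes numbered 283461 to 907489 in the Direct RNA libraries and 948657 to 2088592 in the cDNA libraries. Levels are given as CPM, reads per 1e6 reads on genes, and 3 reads correspond to between 1.44 and 10.6 CPM depending on the library. The 22 sterol genes together took 1463.6 and 1256.2 CPM in the Direct RNA Undiff replicates 1 and 2, and 2166.1 and 1984.9 CPM in the Day4 replicates. In cDNA they took 1724.5 and 1274.1 CPM in Undiff and 1741.8 and 2311.6 CPM in Day4. The 10 fatty acid genes took 1446.4 and 1042.4 CPM in Undiff and 2441.3 and 1670.4 CPM in Day4 in Direct RNA, and 851.7 and 551.1 CPM in Undiff and 822.3 and 828.5 CPM in Day4 in cDNA. The summed levels of both branches were higher in both Day4 replicates than in both Undiff replicates in Direct RNA. Without the desaturase Scd2, a setting chosen after seeing the data, the Direct RNA fatty acid sums were 1300.0 and 895.9 CPM in Undiff and 1347.6 and 1122.6 CPM in Day4 and overlapped. In cDNA this held for the sterol genes only in CPM, with Day4 replicate 1 just above Undiff replicate 1. Scaled by size factors, the cDNA sterol sums were 2016.0 and 1342.6 in Undiff and 1672.8 and 1888.2 in Day4 and overlapped. The fatty acid groups overlapped in cDNA on both scales, and the higher mean was that of Day4 in CPM (825 against 701) and that of Undiff by size factors (788 against 733). Without Acly, which had the most reads of them summed over the 8 libraries, the cDNA sums were 208.7 and 213.1 CPM in Undiff and 618.3 and 668.2 CPM in Day4.

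The first question was which genes differed between Day4 and Undiff within each kit. DESeq2 called a gene differentially expressed (DEG) when its adjusted p was 0.05 or less, its log2 fold change was 1 or more in either direction and its mean normalised count was 5 or more. Direct RNA called 5 of the 31 genes above that count, 16.1%, against 17.2% of all genes tested. Of these 31 genes 4 were higher in Day4, where 9.54% of all genes were, and 1 was lower, where 7.67% of all genes were. The cDNA kit called 7 of 31, 22.6%, against 17.9% of all genes, with 5 higher, where 8.69% of all genes were, and 2 lower, where 9.24% of all genes were. The shares over both branches were thus near those over all genes in both kits. By branch, 1 of 21 sterol genes and 4 of 10 fatty acid genes were called in Direct RNA, and 2 of 22 sterol genes and 5 of 9 fatty acid genes in cDNA. Idi1 in Direct RNA and Acss2 in cDNA were below the minimum count. The median log2 fold change was 0.41 over the sterol genes in Direct RNA and 0.20 in cDNA, -0.17 and 0.24 over the fatty acid genes, and 0.03 and 0.00 over all genes tested. Where states are said to be apart, both Day4 libraries of a kit lay on the same side of both Undiff libraries in CPM. This is common with 2 libraries per state. Over all genes tested, Day4 lay above in 37.3% and below in 30.3% in Direct RNA, and above in 43.1% and below in 23.2% in cDNA, so being apart is given as a description.

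**Figure D1:**
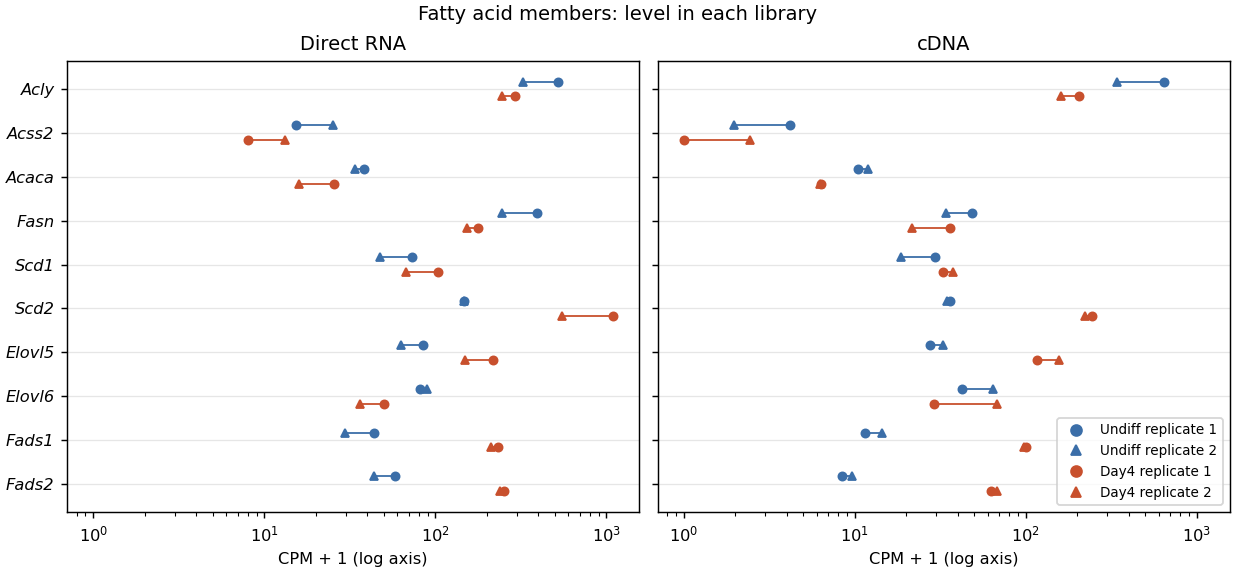
Levels of the 10 fatty acid genes in each library, as CPM + 1 on a log axis, in Direct RNA (left) and cDNA (right). Each point is a library, circles are replicate 1, triangles are replicate 2, and a line joins the replicates of a state; Scd2, Elovl5, Fads1 and Fads2 lie higher in Day4 in both kits, and Acly, Acaca and Fasn lie lower in Direct RNA.

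The fatty acid desaturases and elongases held most of the genes called higher. Scd2, Fads1 and Fads2 rose in Day4 in both kits, by 4.47-fold to 6.14-fold. Of the 6 genes of this group, Direct RNA called 3 higher and cDNA 4, and none was lower with DESeq2, while edgeR called Elovl6 lower in Direct RNA. Their median log2 fold change was 1.68 in Direct RNA and 2.12 in cDNA.

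Scd2, a stearoyl-CoA desaturase that puts the first double bond into saturated fatty acids, had the most reads of this group summed over the 8 libraries. It stood at 146.4 and 146.6 CPM in Direct RNA Undiff and at 1093.6 and 547.7 CPM in Day4, and in cDNA at 34.8 and 33.5 CPM in Undiff and at 242.8 and 220.0 CPM in Day4. The states did not overlap in either kit, and Day4 replicate 1 was the highest library in both. The log2 fold change was 2.33 ± 0.36 (SE, adjusted p = 1.4e-08) in Direct RNA and 2.40 ± 0.44 (adjusted p = 2.7e-06) in cDNA. The call was kept when any 1 library was left out of either kit.

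Fads1, the delta-5 desaturase of long polyunsaturated fatty acids, stood at 43.0 and 28.7 CPM in Direct RNA Undiff and at 232.8 and 210.2 CPM in Day4. The cDNA kit gave 10.5 and 13.4 CPM in Undiff and 99.4 and 96.3 CPM in Day4. The groups were apart and the Day4 replicates lay close together in both kits. The log2 fold change was 2.50 ± 0.47 (adjusted p = 5.2e-06) in Direct RNA and 2.62 ± 0.54 (adjusted p = 3.8e-05) in cDNA.

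Fads2, the delta-6 desaturase that acts before Fads1, stood at 57.4 and 43.0 CPM in Direct RNA Undiff and at 250.5 and 238.6 CPM in Day4. Its cDNA levels were 7.4 and 8.6 CPM in Undiff and 61.4 and 66.9 CPM in Day4. The groups were again apart in both kits. The log2 fold change was 2.16 ± 0.44 (adjusted p = 2.8e-05) in Direct RNA and 2.57 ± 0.60 (adjusted p = 0.00047) in cDNA. Without Direct RNA Undiff replicate 2 the Fads1 call (2.14, adjusted p = 0.072) and the Fads2 call (1.90, adjusted p = 0.11) were lost in that kit. In cDNA the Fads2 call was lost without Undiff replicate 2 (2.50, adjusted p = 0.054), Day4 replicate 1 (2.43, adjusted p = 0.092) or Day4 replicate 2 (2.52, adjusted p = 0.11).

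Fads1 and Fads2 are neighbours, with Fads2 at chr19:10062765-10101746 on the minus strand and Fads1 at chr19:10182888-10196877 on the plus strand, and their starts lie 81142 bases apart (GENCODE vM21, GRCm38). Per kilobase of their longest coding transcript, Fads1 had 0.683 and 0.607 times the level of Fads2 in Direct RNA Undiff and 0.846 and 0.802 times in Day4. In cDNA the same ratio was 1.30 and 1.42 in Undiff and 1.47 and 1.31 in Day4. Which of the pair was higher per length therefore differed between the kits and not between the states. In CPM not divided by length, Fads1 was also the lower of the pair in each Direct RNA library and the higher in each cDNA library. Whether counts of these long reads scale with transcript length was not tested, here or for the other ratios per kilobase.

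Elovl5, an elongase of polyunsaturated fatty acids, rose in cDNA from 26.4 and 31.6 CPM in Undiff to 114.6 and 154.5 CPM in Day4, a log2 fold change of 1.83 ± 0.47 (adjusted p = 0.0017). In Direct RNA it stood at 83.2 and 61.7 CPM in Undiff and at 215.2 and 147.8 CPM in Day4, and 1.19 ± 0.45 missed the threshold (adjusted p = 0.068). It was called there by edgeR (1.22, adjusted p = 0.0055) and by DESeq2 among genes that have 10 reads or more in each library (1.24, adjusted p = 0.015). The groups were apart in both kits. The cDNA call was lost without Undiff replicate 1 (1.69, adjusted p = 0.060), Undiff replicate 2 (1.84, adjusted p = 0.077), Day4 replicate 1 (1.93, adjusted p = 0.068) or Day4 replicate 2 (1.71, adjusted p = 0.22).

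Scd1, the paralog of Scd2, stood at 71.7 and 46.3 CPM in Undiff and 102.3 and 66.4 CPM in Day4 in Direct RNA, and at 28.5 and 17.7 CPM and at 31.9 and 36.6 CPM in cDNA. Its groups overlapped in Direct RNA, and the log2 fold changes of 0.40 and 0.24 were not called. Scd2 at chr19:44293674-44306864 and Scd1 at chr19:44394455-44407879 lie on opposite strands with their ends 87591 bases apart. Per kilobase, Scd2 had 1.81 and 2.81 times the level of Scd1 in Direct RNA Undiff and 9.47 and 7.30 times in Day4, and in cDNA 1.08 and 1.68 times in Undiff and 6.75 and 5.33 times in Day4. How reads that match both paralogs were divided was not tested. Elovl6, which elongates palmitate to stearate, stood at 80.4 and 88.2 CPM in Direct RNA Undiff and at 49.4 and 35.3 CPM in Day4, and its groups overlapped in cDNA, at 41.1 and 63.2 CPM and at 28.1 and 66.4 CPM. Its log2 fold change was -1.09 (adjusted p = 0.26) in Direct RNA, where edgeR gave -1.17 (adjusted p = 0.024), and -0.48 in cDNA.

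The 4 genes of acetyl-CoA supply and palmitate synthesis had negative log2 fold changes in Direct RNA, and so had the 3 with enough reads in cDNA, with medians of -0.92 and -1.16. In each kit 1 of them was called lower, Fasn in Direct RNA and Acly in cDNA. Acly, the ATP citrate lyase, had the most reads of the fatty acid genes over the 8 libraries. It stood at 519.4 and 325.1 CPM in Direct RNA Undiff and at 289.3 and 245.4 CPM in Day4, and in cDNA at 643.0 and 338.0 CPM in Undiff and at 204.1 and 160.3 CPM in Day4. Undiff replicate 1 was the highest library in both kits, and the states did not overlap. The log2 fold change was -0.74 ± 0.34 (adjusted p = 0.17) in Direct RNA and -1.72 ± 0.45 (adjusted p = 0.0025) in cDNA. The cDNA call was lost without Undiff replicate 1 (-1.17, adjusted p = 0.22) or Day4 replicate 2 (-1.42, adjusted p = 0.20).

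Fasn, the fatty acid synthase, stood at 393.2 and 245.7 CPM in Direct RNA Undiff and at 176.4 and 151.8 CPM in Day4. In cDNA it stood at 47.4 and 33.0 CPM in Undiff and at 34.9 and 20.7 CPM in Day4. The groups were apart in Direct RNA and overlapped in cDNA. The log2 fold change of -1.04 ± 0.37 in Direct RNA lay at the edge of the threshold (adjusted p = 0.0497), and -0.81 ± 0.59 in cDNA did not pass (adjusted p = 0.51). Its call was lost when any 1 Direct RNA library was left out, with -0.80 without Undiff replicate 1, -1.32 without Undiff replicate 2, -1.05 without Day4 replicate 1 and -0.93 without Day4 replicate 2, as well as with TMM factors (-1.02, adjusted p = 0.056) and among genes that have 10 reads or more in each library (-0.86, adjusted p = 0.074).

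Acaca, the acetyl-CoA carboxylase that makes malonyl-CoA, stood at 37.3 and 33.1 CPM in Undiff and at 24.7 and 14.9 CPM in Day4 in Direct RNA, and at 9.5 and 11.0 CPM and at 5.3 and 5.3 CPM in cDNA. Its groups were apart in both kits, and log2 fold changes of -0.90 and -1.16 were not called. Acss2, which makes acetyl-CoA from acetate, stood at 14.3 and 24.2 CPM in Undiff and at 7.1 and 12.2 CPM in Day4 in Direct RNA. In cDNA it had 3.2 and 1.0 CPM in Undiff and 0 and 1.4 CPM in Day4, where 3 reads in the library at 0 would be 2.28 CPM.

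**Figure D2:**
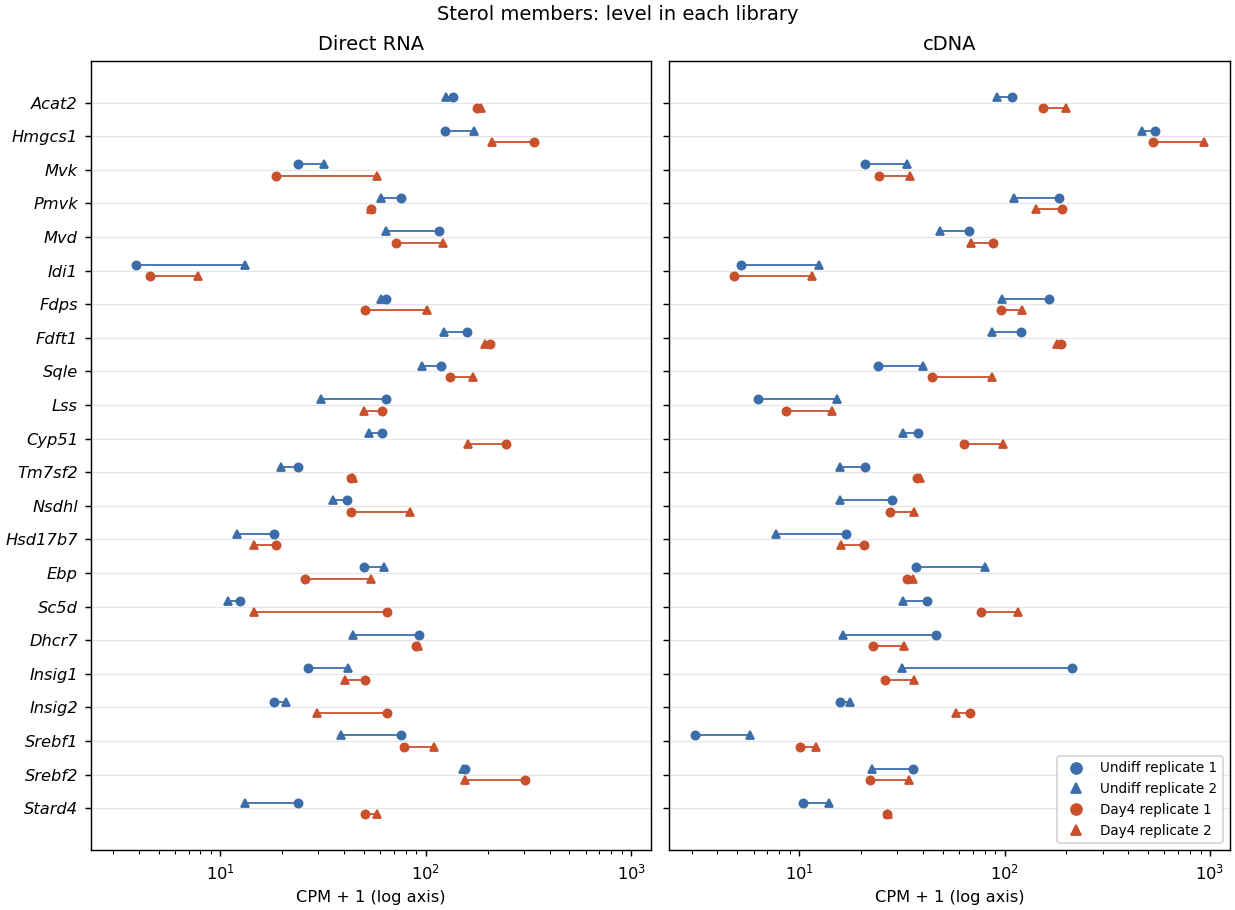
Levels of the 22 sterol genes in each library, as CPM + 1 on a log axis, in Direct RNA (left) and cDNA (right), from the start of the mevalonate pathway (top) to the regulators and Stard4 (bottom). Circles are replicate 1, triangles are replicate 2, and a line joins the replicates of a state; Cyp51 lies higher in Day4 in both kits, and Insig1 in cDNA Undiff spans 30.6 to 212.9 CPM.

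None of the 7 enzymes from acetyl-CoA to farnesyl diphosphate was called with DESeq2 or had an unadjusted p under 0.05 in either kit, and edgeR called none either. Their median log2 fold change was 0.30 in Direct RNA over the 6 with enough reads and -0.14 in cDNA over 7. Hmgcs1, the HMG-CoA synthase, had the most reads of the sterol genes summed over the 8 libraries. It stood at 123.4 and 170.8 CPM in Direct RNA Undiff and at 335.1 and 208.8 CPM in Day4, where the groups were apart, and the log2 fold change was 0.72 ± 0.40 (adjusted p = 0.31). Levels in cDNA were 536.5 and 465.9 CPM in Undiff and 529.5 and 934.9 CPM in Day4, where the groups overlapped.

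Acat2, which joins acetyl-CoA units ahead of Hmgcs1, stood at 134.9 and 124.5 CPM in Direct RNA Undiff and at 176.4 and 184.4 CPM in Day4, and at 107.5 and 91.0 CPM and at 152.5 and 196.9 CPM in cDNA. Its Day4 replicates were above its Undiff replicates in both kits, and log2 fold changes of 0.37 ± 0.40 and 0.47 ± 0.42 were not called. The mevalonate kinase Mvk ranged from 17.6 to 56.9 CPM over the 8 libraries, the phosphomevalonate kinase Pmvk from 52.9 to 189.7 CPM, the decarboxylase Mvd from 47.4 to 120.7 CPM and the farnesyl diphosphate synthase Fdps from 49.4 to 163.4 CPM. The isomerase Idi1 had between 1 and 24 reads in a library.

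Of the 10 enzymes from squalene to cholesterol, Cyp51 was called higher in Direct RNA and none was called in cDNA, where Sc5d had an unadjusted p under 0.05 and edgeR called none. The median log2 fold change was 0.41 in Direct RNA and 0.40 in cDNA. Cyp51, the lanosterol demethylase, stood at 60.3 and 51.8 CPM in Direct RNA Undiff and at 243.4 and 158.6 CPM in Day4. In cDNA the levels were 36.9 and 31.1 CPM in Undiff and 62.2 and 97.7 CPM in Day4. The groups were apart in both kits. The log2 fold change was 1.69 ± 0.46 (adjusted p = 0.0042) in Direct RNA and 0.87 ± 0.50 (adjusted p = 0.34) in cDNA. The Direct RNA call was lost when any 1 library was left out, with 1.62 without Undiff replicate 1, 1.54 without Undiff replicate 2, 1.39 without Day4 replicate 1 and 1.91 without Day4 replicate 2.

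Sc5d, the desaturase that makes 7-dehydrocholesterol, stood at 11.5 and 9.9 CPM in Direct RNA Undiff and at 63.5 and 13.6 CPM in Day4, so that Day4 replicate 1 stood far above the other. In cDNA it stood at 41.1 and 31.1 CPM in Undiff and at 75.9 and 114.6 CPM in Day4. The log2 fold changes of 1.50 ± 0.91 (adjusted p = 0.38) and 1.04 ± 0.49 (adjusted p = 0.19) were not called. Fdft1, the squalene synthase, stood at 157.8 and 121.2 CPM in Undiff and at 204.6 and 193.9 CPM in Day4 in Direct RNA, and at 119.1 and 85.7 CPM and at 186.6 and 178.6 CPM in cDNA. Sqle, the squalene epoxidase, stood at 117.7 and 94.8 CPM and at 130.5 and 168.1 CPM in Direct RNA, and at 23.2 and 39.3 CPM and at 43.2 and 85.7 CPM in cDNA. Neither passed the test. The sterol reductase Tm7sf2 was not called either, with 23.0 and 18.7 CPM in Undiff and 42.3 and 43.4 CPM in Day4 in Direct RNA, and 20.0 and 14.8 CPM and 36.4 and 37.5 CPM in cDNA.

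The other enzymes of this stretch overlapped between states in at least 1 kit. Lss, the lanosterol synthase, overlapped in both, with 63.1 and 29.8 CPM in Undiff and 60.0 and 48.8 CPM in Day4 in Direct RNA. Nsdhl, which takes part in removing methyl groups from the sterol ring, ranged from 14.8 to 82.7 CPM over the 8 libraries, and Hsd17b7, a ketosteroid reductase of the same step, from 6.7 to 19.7 CPM. Ebp, the sterol isomerase, ranged from 24.7 to 79.5 CPM, with its highest value in cDNA Undiff replicate 2. Dhcr7, which reduces 7-dehydrocholesterol to cholesterol, ranged from 15.3 to 91.8 CPM.

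Among the 4 regulators and the carrier Stard4, Insig2 was called higher and Insig1 lower in cDNA, and none was called in Direct RNA with DESeq2, where Stard4 alone had an unadjusted p under 0.05 and edgeR called it. Insig1 stood at 25.8 and 40.8 CPM in Direct RNA Undiff and at 49.4 and 39.3 CPM in Day4. In cDNA it stood at 212.9 and 30.6 CPM in Undiff and at 25.0 and 35.1 CPM in Day4. The cDNA log2 fold change of -2.28 ± 0.67 (adjusted p = 0.0093) rested on Undiff replicate 1, the one library far above the rest, and the groups overlapped. Without that library the value was -0.35 (adjusted p = 0.95), without Undiff replicate 2 it was -3.14, and without Day4 replicate 1 (-1.49) or Day4 replicate 2 (-1.83) it was not called. It was also not called among genes that have 10 reads or more in each library (-1.34, adjusted p = 0.22).

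Insig2, the second protein of this kind, stood at 17.2 and 19.8 CPM in Direct RNA Undiff and at 63.5 and 28.5 CPM in Day4. In cDNA it stood at 14.8 and 16.8 CPM in Undiff and at 66.8 and 57.3 CPM in Day4. The groups were apart in both kits, and the log2 fold change was 1.05 ± 0.77 (adjusted p = 0.53) in Direct RNA and 1.60 ± 0.56 (adjusted p = 0.041) in cDNA. The cDNA call was lost when any 1 library was left out, with 1.49 without Undiff replicate 1, 1.56 without Undiff replicate 2, 1.36 without Day4 replicate 1 and 1.77 without Day4 replicate 2. Per kilobase, Insig2 had 0.667 and 0.486 times the level of Insig1 in Direct RNA Undiff and 1.29 and 0.724 times in Day4, and in cDNA 0.0693 and 0.547 times in Undiff and 2.67 and 1.63 times in Day4.

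Srebf1, which encodes the SREBP-1 transcription factors, stood at 74.6 and 37.5 CPM in Undiff and at 77.6 and 108.5 CPM in Day4 in Direct RNA, and at 2.1 and 4.8 CPM and at 9.1 and 11.1 CPM in cDNA. Srebf2, which encodes SREBP-2, stood at 155.0 and 149.9 CPM in Undiff and at 303.4 and 154.6 CPM in Day4 in Direct RNA, and at 34.8 and 21.5 CPM and at 21.2 and 33.2 CPM in cDNA. Neither was called between states, with log2 fold changes of 0.67 and 1.05 for Srebf1 and 0.44 and -0.37 for Srebf2. Stard4, which carries sterols between membranes, stood at 23.0 and 12.1 CPM in Undiff and at 49.4 and 56.9 CPM in Day4 in Direct RNA, and at 9.5 and 12.9 CPM and at 25.8 and 26.0 CPM in cDNA. Its groups were apart in both kits, and the log2 fold changes were 1.47 ± 0.74 (adjusted p = 0.23) in Direct RNA, where edgeR gave 1.64 (adjusted p = 0.0081), and 0.83 in cDNA.

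**Figure D3:**
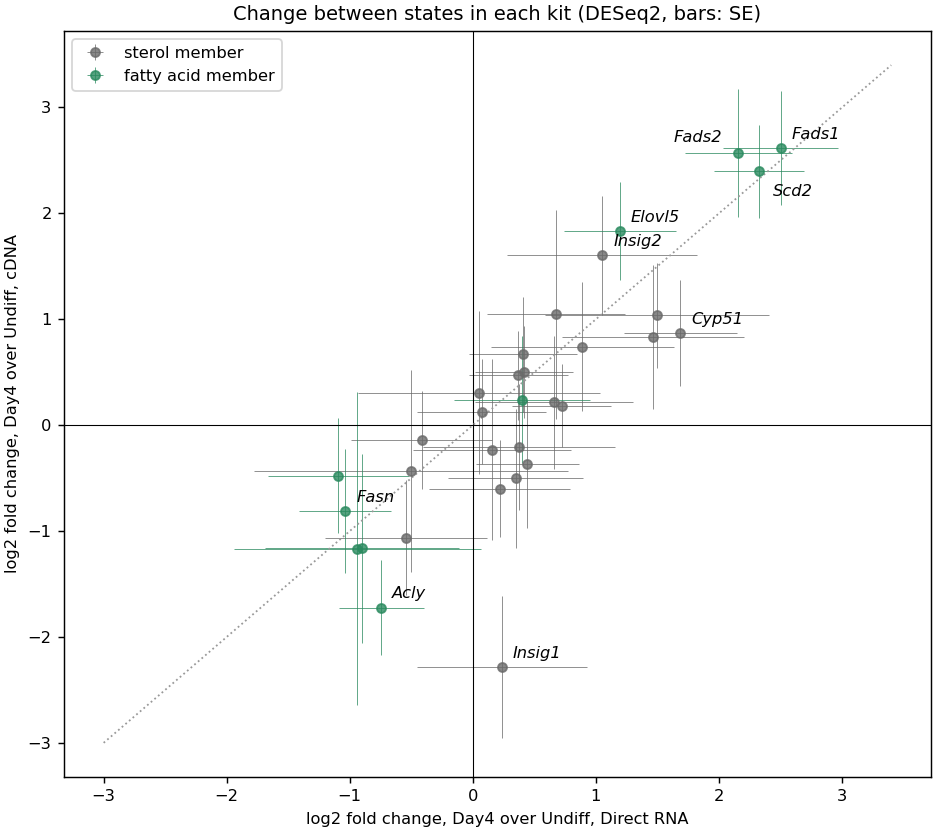
DESeq2 log2 fold change of Day4 over Undiff for the 32 genes in Direct RNA (horizontal axis) and in cDNA (vertical axis), with bars of 1 SE, grey for sterol and green for fatty acid genes. Genes called in either kit are named; Scd2, Fads1, Fads2 and Elovl5 lie at the upper right near the dotted line of equal change, and Insig1 lies at 0.24 in Direct RNA and -2.28 in cDNA.

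The next question was whether the change between states differed between the kits. None of the 32 genes was called by the DESeq2 interaction of kit and state at an adjusted p of at most 0.05, where 0.0116% of all genes were called. At an unadjusted p under 0.05 there was 1 gene, Insig1, with a difference of -2.71 ± 1.03 on the log2 scale (unadjusted p = 0.0087), and edgeR called none of the 32. Without cDNA Undiff replicate 2 the Insig1 difference was called (-3.56, adjusted p = 0.030), and that fit keeps the high Undiff replicate 1. For Scd2, Fads1 and Fads2 the differences were 0.08 ± 0.59, 0.13 ± 0.70 and 0.46 ± 0.71. With 2 libraries in each group these SEs leave room for differences of more than 1 on the log2 scale.

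Both kits were then compared in a fit of the 8 libraries that also held the state. DESeq2 called 11 of the 32 genes between kits, 34.4%, where 51.3% of all genes tested were called. In cDNA 4 of the 32 genes were higher, where 24.7% of all genes were, and 7 were lower, where 26.6% of all genes were. With DESeq2 all 4 higher genes were sterol enzymes. Hmgcs1 was higher by 2.31 ± 0.25 on the log2 scale, Sc5d by 2.25 ± 0.44, Pmvk by 2.13 ± 0.31 and Fdps by 1.50 ± 0.35. Of these, Hmgcs1 ranged from 123.4 to 335.1 CPM in Direct RNA and from 465.9 to 934.9 CPM in cDNA, and Pmvk from 52.9 to 74.6 CPM and from 110.6 to 189.7 CPM, without overlap. With both states pooled, the kits overlapped for Sc5d (9.9 to 63.5 CPM and 31.1 to 114.6 CPM) and Fdps (49.4 to 100.3 CPM and 94.8 to 163.4 CPM). Within each state Sc5d did not overlap between kits, and Fdps overlapped in Day4 only. Insig1 (1.36, adjusted p = 0.064) and Insig2 (0.90, under the threshold of size) were not called, but edgeR called both higher in cDNA (1.50, adjusted p = 2.0e-05, and 1.01, adjusted p = 0.0090). Among genes that have 10 reads or more in each library, Sqle (-1.11) and Dhcr7 (-1.04) were called lower in cDNA as well.

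Of the 7 genes called lower in cDNA, 4 were fatty acid genes and 3 were sterol genes. Srebf1 had the lowest log2 fold change among the 32 (-2.69 ± 0.39), followed by Acss2 (-2.50 ± 0.72), Fasn (-1.98 ± 0.31), Srebf2 (-1.97 ± 0.33), Lss (-1.45 ± 0.41), Fads2 (-1.43 ± 0.26) and Scd2 (-1.18 ± 0.26). None of the 10 fatty acid genes was called higher in cDNA or had an unadjusted p under 0.05 in that direction with DESeq2, and edgeR called none higher. The Srebf1 levels ran from 37.5 to 108.5 CPM in Direct RNA and from 2.1 to 11.1 CPM in cDNA, and those of Fasn from 151.8 to 393.2 CPM and from 20.7 to 47.4 CPM, so neither gene overlapped between kits. With both states pooled, the kits overlapped for Fads2 (43.0 to 250.5 CPM and 7.4 to 66.9 CPM) and Scd2 (146.4 to 1093.6 CPM and 33.5 to 242.8 CPM), which also differed between states. Within each state neither of them overlapped between kits. Without Direct RNA Day4 replicate 1 the Scd2 value was -0.97 and under the threshold of size, and without Direct RNA Undiff replicate 2 Acss2 fell below the minimum mean count.

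**Figure D4:**
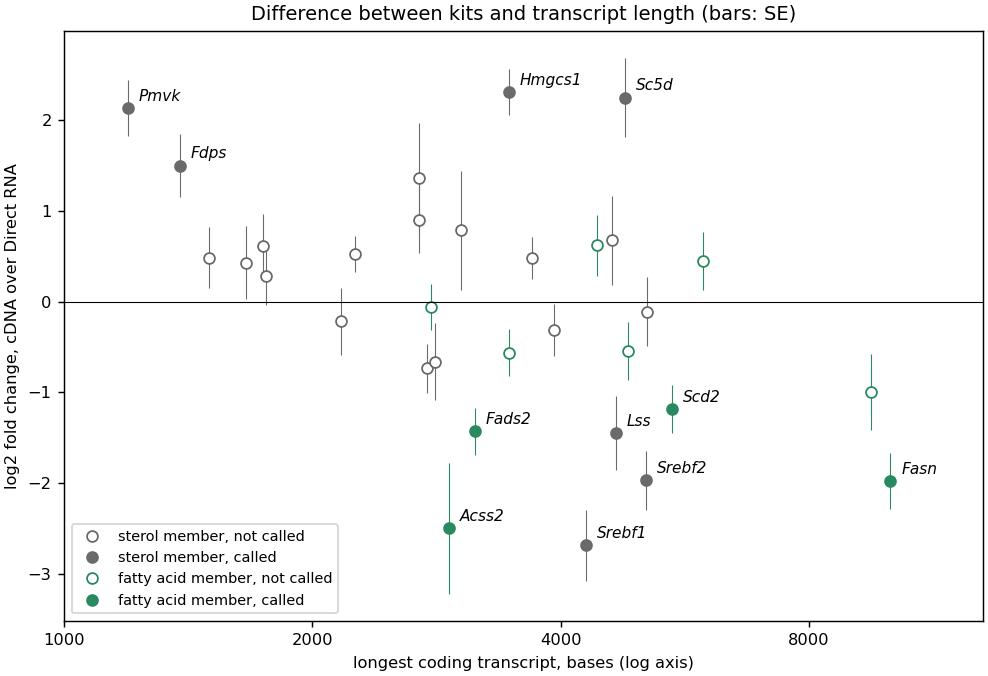
DESeq2 log2 fold change of cDNA over Direct RNA for the 32 genes against the length of the longest coding transcript in bases (log axis), with bars of 1 SE. Filled points are called between kits and named; 6 of the 8 called genes above 3044 bases are lower in cDNA, and 2 of the 3 called genes below it are higher.

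The kits also differed with transcript length over all genes, and these values stand beside the comparison. Among 5198 genes whose longest coding transcript was shorter than 3044 bases, the median, 1772 were higher and 902 lower in cDNA, and among 5196 longer genes 783 were higher and 1868 lower. Of the 15 shorter genes described here 2 were higher and 1 lower, and of the 17 longer genes 2 were higher and 6 lower. The Spearman correlation of length with the log2 fold change was -0.43 over the 32 genes and -0.33 over 10394 genes, as a description over genes that share the same 8 libraries. By branch it was -0.34 over the 22 sterol genes and -0.03 over the 10 fatty acid genes. Fasn, at 10050 bases, and Acaca, at 9513 bases, are the longest of the 32. The methods name Direct RNA as the libraries counted by strand for genes, and the setting for cDNA genes is not written out in the sources used here. An exon of Lss, Srebf1 and Acss2, of the 7 lower genes, overlaps an exon of another counted gene on the opposite strand, and so does one of Fdft1 and Cyp51. The part of length, strand counting or PCR in these differences was not tested.

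Other genes of the same pathways were counted from lists of known members. Of further sterol pathway genes, 1 of 11 was called higher in Direct RNA and 1 of 10 in cDNA, near the 9.54% and 8.69% of all genes. That gene, Acat1, a mitochondrial thiolase that also makes acetoacetyl-CoA, rose from 29.3 ± 7.2 to 105 ± 37 CPM (SD, n = 2) in Direct RNA and from 25.4 ± 2.8 to 139 ± 12 CPM in cDNA. Of genes for sterol and lipoprotein uptake and transport, 1 was higher and 1 lower of 11 in Direct RNA, and 2 were higher and 2 lower of 10 in cDNA. Npc2, which carries cholesterol out of lysosomes, rose in both kits, by 1.74 and 1.54 on the log2 scale. Apoe, an apolipoprotein, fell by 2.30 in Direct RNA and by 2.50 in cDNA, from 851 ± 347 to 181 ± 36 CPM and from 661 ± 280 to 140 ± 3.8 CPM (SD, n = 2).

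Of other fatty acid genes, 1 of 21 was called lower in Direct RNA and 3 of 22 in cDNA, beside 7.67% and 9.24% of all genes, and none higher with DESeq2. Hacd2, a dehydratase of the elongation cycle, fell in both kits, by 1.98 and 1.87 on the log2 scale. Of genes of fatty acid oxidation, 1 was higher and 1 lower of 8 in Direct RNA and of 9 in cDNA. In lists this short, such counts do not set a list apart from all genes, and the genes named are those called in the same direction in both kits. Acaa2, the mitochondrial thiolase, rose by 2.08 and 2.11 on the log2 scale, and Acadm, the medium-chain acyl-CoA dehydrogenase, fell by 1.95 and 1.79.

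Markers of cell types moved with the state in the same libraries. The 8 markers of pluripotent cells, among them Pou5f1, Nanog and Sox2, were called lower in both kits, and their summed level went from 11482 and 13725 CPM to 116 and 544 CPM in Direct RNA and from 21479 and 24601 CPM to 84.2 and 944 CPM in cDNA. Of the 8 markers of the RA response, 7 of the 7 with the minimum count were higher in Direct RNA and 8 of 8 in cDNA. Of the 10 markers of visceral and parietal endoderm, such as Afp and Apoa1, 6 in Direct RNA and 7 in cDNA had the minimum count. Of these, 6 of 6 were higher in Direct RNA and 4 of 7 in cDNA, where 1 had a negative log2 fold change (-2.41) and was not called. The sums over the list went from 23.0 and 20.9 CPM to 1132 and 727 CPM in Direct RNA and from 29.5 and 13.9 CPM to 434 and 449 CPM in cDNA. Of the 8 markers of fibroblasts and mesenchyme, such as Col1a1, Col1a2 and Col3a1, 7 of the 7 with the minimum count were higher in both kits. Their list sums went from 23.0 and 34.2 CPM to 3288 and 1765 CPM in Direct RNA and from 9.49 and 17.2 CPM to 373 and 466 CPM in cDNA. Afp, Ttr and Gata6 of the endoderm list and Col1a2 and Col3a1 of the mesenchyme list were at 0 in Undiff in both kits. Of the neural markers, 2 of 3 in Direct RNA and 2 of 4 in cDNA were called lower and none higher with DESeq2, the lower ones being Tubb3 and Stmn2 in both, while Nes was higher at an unadjusted p under 0.05 only. Day4 replicate 1 had the lower sum of pluripotency markers of the Day4 pair in both kits. In such bulk RNA, a change in the number of cells of a type and a change in RNA per cell cannot be told apart, and the part of cell types in the changes of the lipid genes was not tested.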

How the data were processed

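The deposited files hold raw read counts, one whole number for each gene symbol, from htseq-count with the iGenomes UCSC annotation, after the authors had aligned reads to mm10 with minimap2. Direct RNA reads were base-called with albacore or Guppy and trimmed with Poreplex. Guppy was used for cDNA reads of the skip folder, which joined those of the pass folders before porechop trimming. The 5 counters of unassigned reads, between 38.1% and 61.7% of a file's total, were left out. Confidence intervals were not computed. Floors of 3 reads cover counting error only, since PCR reads are not independent molecules.

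States were compared within each kit, kits with state as a covariate, and both together by an interaction. This used DESeq2 1.42.0 in R 4.3.3 with the settings in the study's methods (shrunken log2 fold changes, no Cook's cutoff, no independent filtering). The study used an older DESeq2 and reported more DEGs between states than the 1660 in Direct RNA and 1842 in cDNA called here. The cause of that difference was not tested. The interaction was not shrunken and had only the adjusted p as threshold. P-values were Benjamini-Hochberg adjusted over all genes with a read. Adjusted p-values come from DESeq2 unless edgeR 4.0.16 (quasi-likelihood, TMM) is named. With 2 replicates per group, each SE rests on few libraries. Alternatives were edgeR, TMM factors, a filter of 10 reads in each library, DESeq2 without shrinkage, a replicate block and leaving out each library.

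Lengths and coordinates come from GENCODE vM21, with the longest coding transcript. The fits were run on simulated counts in which all genes had the same set spread and changes were planted only in genes with enough reads. That setting is simpler than these libraries, so no conclusion about the calls is drawn from it. The other lists, like the genes, were chosen with earlier results of these data known. All 32 genes are named, and of the other pathway lists those called in the same direction in both kits.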

Additional observations from a re-analysis of the deposited data

How the results depend on the processing

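Of the 32 genes, none that was called between states or kits turned its direction under any alternative. Of the values recomputed for the 32 genes, 259 of 277 kept their side of the threshold in Direct RNA, 262 of 281 in cDNA, 357 of 370 between kits and 369 of 370 for the interaction. Most of these values belong to genes not called in the main fit, which had no call to lose. A call was lost in 14 of the values in Direct RNA, 18 in cDNA and 2 between kits. One was gained in 4, 1 and 11 values, and in 1 for the interaction. The depth limits the least abundant genes: Idi1 had between 1 and 24 reads and Acss2 was at 0 in 1 library. Where a group was left with 1 library, its spread was taken to be that of the other groups. Unless a value shows it, the cause of a change was not tested.

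The number of all genes called between states was 3267 in Direct RNA and 3355 in cDNA with edgeR, against 1660 and 1842. Keeping genes that have 10 reads in each library, which tests fewer genes, it was 723 and 989, and 1674 between kits. Leaving out 1 library gave 393 to 797 genes in Direct RNA and 709 to 1020 in cDNA. For the interaction, 14 genes were called with edgeR, 1 with TMM factors, 1 with 10 reads in each library and 0 to 13 without 1 library, against 2. Among the sterol genes, edgeR called 2 higher in Direct RNA (Cyp51 and Stard4), and 10 reads in each library gave 2 higher (Insig2 and Sc5d) and 0 lower in cDNA. Leaving out 1 library gave 0 sterol genes higher in either kit, 0 to 1 lower in cDNA and 0 to 1 by the interaction. Among the fatty acid genes called lower in Direct RNA, edgeR gave 2 (Fasn and Elovl6), TMM factors 0, 10 reads 0 and leaving out 1 library 0. Without 1 library, those called higher numbered 1 to 3 in Direct RNA and 2 to 3 in cDNA, and those lower in cDNA 0 to 1. With 10 reads, 2 fatty acid genes were lower between kits, and 4 were higher between states in Direct RNA and 3 in cDNA. The number higher between states with edgeR was 4 in each kit.

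With a replicate block, 843 genes were called in Direct RNA and 1375 in cDNA, and 0 sterol genes were higher in either kit, since Cyp51 (1.64, adjusted p = 0.055) and Insig2 (1.56, adjusted p = 0.14) were lost, as was Fasn (-1.01, adjusted p = 0.17), which left 0 fatty acid genes lower in Direct RNA. The block left 3 and 4 fatty acid genes higher, 5049 genes called between kits and 2 by the interaction. Deviations of same-numbered replicates from their group mean correlated at 0.21 between states in Direct RNA, 0.50 in cDNA, 0.12 between kits in Undiff and -0.42 between kits in Day4 over 1395 genes, and 2 pairs do not establish pairing.

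TMM factors moved the median log2 value of all genes for the interaction from -0.01 to 0.10. Without Hmgcs1 the mean summed level of the sterol genes was 1213 CPM in Direct RNA Undiff, 1804 in Day4, 998 in cDNA Undiff and 1295 in Day4. Without Acly that of the fatty acid genes was 822 CPM in Direct RNA Undiff, 211 in cDNA Undiff and 643 in cDNA Day4, with 1788 in Direct RNA Day4, and scaling by size factors gave 788 in cDNA Undiff and 733 in cDNA Day4. Without Scd2, an alternative added after seeing the data, the fatty acid mean was 1235 CPM in Direct RNA Day4 and 594 in cDNA Day4, against 1098 and 667 in Undiff.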
